A study of Homo sapiens with 16 samples.

Results

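The comparison described here set LNCaP cells transfected with siRNA against XBP1 (siXBP1, 4 libraries) against the same cells transfected with the Allstar control siRNA (siCtrl, 4 libraries). These 8 RNA-seq libraries were chosen by their siRNA labels from the 16 of the series; the other 8 came from cells given DMSO (Vehicle) or 10 µM of the IRE1α RNase inhibitor MKC8866 for 24 h, and were treated with thapsigargin too. LNCaP is an androgen-sensitive line from a prostate cancer metastasis, and the comparison therefore concerns one line and one siRNA product per arm. All 8 libraries were from cells exposed to 30 nM thapsigargin, which empties the calcium store of the endoplasmic reticulum (ER), for 3 h, 2 days after transfection, so the control cells were themselves stressed and no unstressed library enters the comparison. The labels number the replicates 1 to 4 in each group and do not say that they were separate cultures, so the p-values measure the spread between these libraries, which may be technical.

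XBP1 is the transcription factor at the end of the IRE1α branch of the unfolded protein response. When unfolded proteins collect in the ER, the RNase of IRE1α cuts an intron out of XBP1 mRNA, and the spliced mRNA encodes XBP1s, an activator of genes for protein import, glycosylation, folding, quality control and transport out of the ER. The branch is best known from plasma cells and other secretory cells, and the luminal prostate epithelium from which LNCaP cells derive is a secretory epithelium too. ATF6 and PERK, the latter acting through ATF4 and CHOP, head the other branches and switch on overlapping sets of genes.

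The targeted gene was low in every knockdown library. XBP1 was at 385, 421, 365 and 358 CPM (counts scaled to library size, with the trimmed mean of M-values) in siCtrl and at 50.99, 53.8, 54.2 and 53.1 CPM in siXBP1. The highest siXBP1 library was far below the lowest siCtrl library, and the mean was 7.203-fold lower (log2 fold change -2.85 ± 0.051 (SE), adjusted p = 2.92e-20; edgeR's quasi-likelihood test with Benjamini-Hochberg adjustment over all genes, used for every adjusted p below). The table counts spliced and unspliced XBP1 mRNA as 1 gene, so the level of XBP1s cannot be read from it, and in bulk RNA fewer cells of a kind and less mRNA per cell cannot be told apart. The 8 libraries held 28713607 to 34509488 counted fragments, Pearson's r between libraries of a group was 0.995 to 0.997 over 15038 genes of at least 1 CPM, and the biological coefficient of variation was 5.40%. All 10 luminal prostate markers were well expressed (59.7 to 956 TPM in siCtrl, a level per transcript length), and of 19 markers of basal, fibroblast, endothelial and blood cells, 11 stayed at 3 counts or fewer in every library. PTPRC, PECAM1, CDH5 and COL1A2 were among these, whereas COL1A1 was at 862 to 1102 counts (10.2 TPM in siCtrl and 11.4 TPM in siXBP1) and VWF at 221 to 292 counts (2.70 and 2.66 TPM) in every library. The 9 fibroblast and endothelial markers summed to 13.3 to 15.5 TPM in siCtrl and 16.2 to 17.7 TPM in siXBP1, and the 2 members that passed the test were COL3A1 (2.04 ± 0.218 to 4.37 ± 0.664 CPM, SD, n = 4) and PDGFRB (0.387 ± 0.0541 to 0.718 ± 0.0961 CPM), both higher in siXBP1 from a low level, although the call of PDGFRB was lost without siXBP1 replicate 3; the part of such cells in other results was not tested.

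Stretches of 30 bases from the promoters of genes of these families are shown first, because genes that carry the same motif came out on both sides of the comparison. The ER stress response element, CCAAT and CCACG set 9 bases apart, is the textbook binding site of the ATF6 and XBP1 family, and TGACGTGG is the core of the unfolded protein response element. Sequences are RefSeq promoter windows (GRCh38.p14, 250 bases before to 50 after a start site), 5′ to 3′ on the strand of the gene, with the motif in capitals, and for a motif on the opposite strand the capitals are its reverse complement. The first 3 genes fell after knockdown, and the last 3, all ER chaperones, did not.
FICD: caacaaCCAATgggagtggcCCACGgcgcg
XBP1: cgctggCCAATcgcggagggCCACGaccgt
SERP1: ctcatgCGTGGagacagcgaATTGGtgttt
HSPA5: ccttcaCCAATcggcggcctCCACGacggg
HSP90B1: ccctgaCCAATcggaaggagCCACGcttcg
HSP90B1: tgggtgCGTGGtgcggcgcgATTGGtgggt
CALR: cccacgCGTGGtcgaccatcATTGGtcggt
The positions are chr12:108515117-108515146, plus strand (FICD), chr22:28800598-28800627, minus strand (XBP1), chr3:150546705-150546734, minus strand (SERP1), chr9:125241386-125241415, minus strand (HSPA5), chr12:103930210-103930239, plus strand and chr12:103930315-103930344, plus strand (HSP90B1, which has the element 2 times) and chr19:12938378-12938407, plus strand (CALR).

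Beside these sequences the log2 fold changes after knockdown were -2.52, -2.85 and -1.50 for FICD, XBP1 and SERP1, and 0.30, 0.27 and -0.01 for HSPA5, HSP90B1 and the chaperone calreticulin (CALR, 2173, 2124, 2119 and 2247 CPM in siCtrl and 2093, 2184, 2213 and 2119 CPM in siXBP1, overlapping). XBP1 is the siRNA target, so its fall does not bear on its promoter. For SERP1 the start site used lay 56732 bases from the 5′ end of the gene in the annotation used for counting. The element, searched on both strands, was in 16 of 12646 tested genes with a window (0.127%), and 8 of these 16 genes were lower and 4 higher. Another pair searched, ATTGG and CCACG set 1 base apart, was in 12 windows (0.0949%), with 8 genes lower and 0 higher. Of all 12646 genes with a window, 2865 were lower and 2559 higher. The windows shown were chosen after the values of the genes were seen.

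The shorter motif TGACGTGG, whose reverse complement holds CCACG, was in 8 of 36 windows of the COPI and Golgi list (22.2%), against 0.909% of all 12646 windows. The other secretory lists lay above that share too, from 1 of 40 windows for N-glycan assembly (2.5%) to 3 of 33 for COPII (9.09%). The motif was in 1.57% of windows of lower genes, 0.469% of higher genes and 0.803% of genes not called. The windows of 6 of the COPI and Golgi genes, with those of the COPII gene SEC24A and the ER disulfide reductase DNAJC10, were these.
COPA: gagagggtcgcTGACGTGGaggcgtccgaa
GOLGA1: tggccgctcgcTGACGTGGcgaactgggct
KDELR3: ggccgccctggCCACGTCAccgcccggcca
GOLGA5: ccggcggcgagCCACGTCAcacgcacgcag
COPB2: gctcagcggcaCCACGTCAcggcccttagt
ARF1: cccggaggcgcTGACGTGGccgccgtcaga
SEC24A: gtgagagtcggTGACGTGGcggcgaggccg
DNAJC10: cgcgcacaccgCCACGTCAacctaaaccta
They lie at chr1:160343227-160343256, minus strand, chr9:124941248-124941277, minus strand, chr22:38468039-38468068, plus strand, chr14:92794115-92794144, plus strand, chr3:139389825-139389854, minus strand, chr1:228082681-228082710, plus strand, chr5:134648595-134648624, plus strand and chr2:182716121-182716150, plus strand, in the same order. Their log2 fold changes were -1.16, -0.97, -0.76, -0.57, -0.54, -0.49, -0.64 and -0.74, all at an adjusted p under 0.05, and the other carriers in the list were GBF1 (-0.27), lower, and COPB1 (-0.10), which did not pass the test. These genes were singled out for the motif, after their values were seen. COPB2 carries the motif again at chr3:139389632-139389661, which is not shown. For GOLGA1 the start site used lay 7409 bases from the 5′ end of the gene in the annotation used for counting. The single box CCACG was common, in 48.1% of all windows, 52.3% of lower and 47.8% of higher genes.

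Of 21021 genes tested, 3836 were lower and 3475 higher after XBP1 knockdown at an adjusted p under 0.05, which is 18.2% and 16.5% of the genes tested. The changes were many and mostly small: the median called gene differed 1.26-fold in either direction, 2634 of the called genes (36.0%) differed by less than 1.2-fold, and the smallest called change was 1.07-fold. Falls and rises were similar in number at 1.5-fold (922 lower, 853 higher) and at 2-fold (284 lower, 308 higher), and 21 genes fell and 14 rose more than 4-fold. These tail counts depend on the filter for low counts: of the genes past 4-fold, 8 that fell and 8 that rose had a mean under 1 CPM, and with at least 10 counts in every library 372 genes in place of 592 were past 2-fold and 16 in place of 35 past 4-fold (212 without a filter). The quartiles of all log2 fold changes were -0.20 and 0.21 and their median 0.0050, beside a median standard error of 0.091. In 3618 genes (17.2% of those tested) all 4 siXBP1 libraries were lower than all 4 siCtrl libraries, and in 3269 (15.6%) all 4 were higher.

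Large falls and large rises were found at different levels of expression. Genes that fell more than 2-fold had a median of 4.98 CPM, and 95 of 284 were under 1 CPM, whereas genes that rose more than 2-fold had a median of 0.782 CPM, and 170 of 308 were under 1 CPM. Among the 4204 most expressed genes, those with a mean of 63.3 CPM or more, 64 fell and 6 rose more than 2-fold, and these counts were 61 to 66 and 6 or 7 over the 13 alternative fits in which they were counted. In the same bin 32.8% of genes were called lower and 23.0% higher, while in the bin of 0.498 to 3.04 CPM 8.42% were lower and 12.2% higher. The standard error fell from a median of 0.46 in the lowest bin to 0.044 in the highest, so small changes could be called only in the more expressed genes. By exon length, genes of at least 1 CPM showed a median log2 fold change of 0.01 in the shortest and -0.01 in the longest of 5 bins, so no lean towards short or long genes was seen. Protein-coding genes were called more often (23.4% lower, 21.2% higher of 14075) than long noncoding RNAs (9.16% and 7.57% of 3395), which had larger standard errors (median 0.29 against 0.060).

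**Figure D1:**
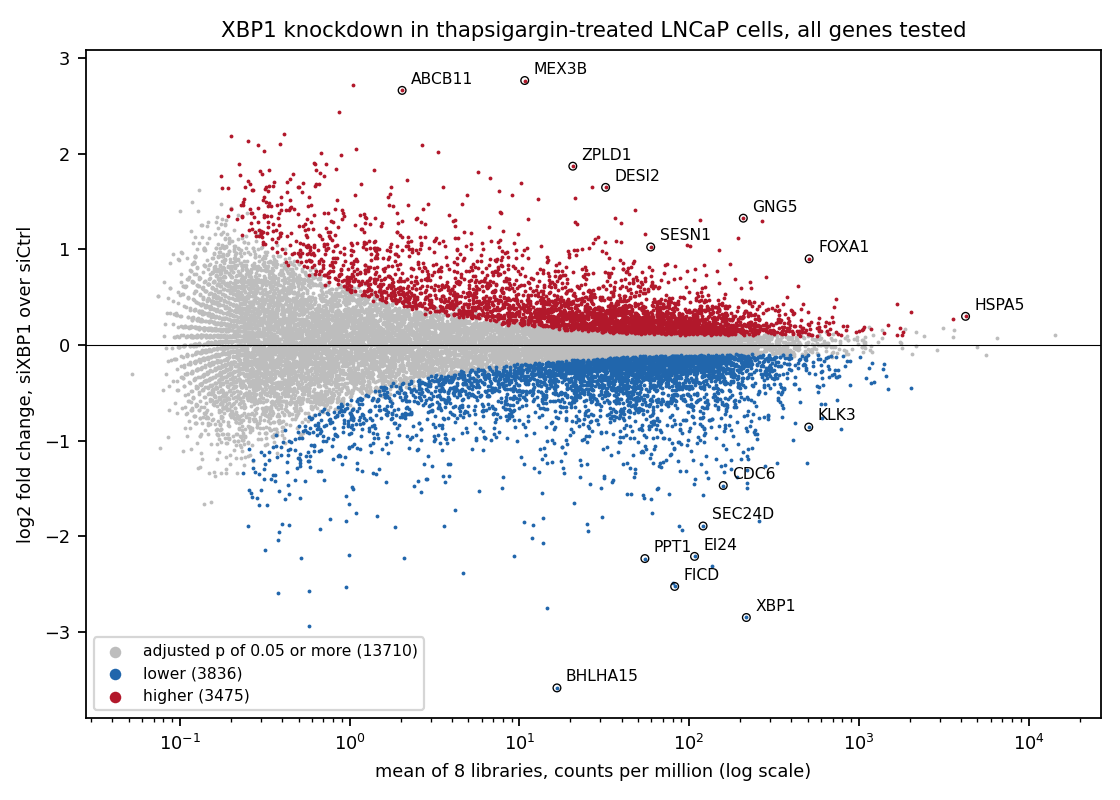
Log2 fold change (siXBP1 over siCtrl) of every gene tested against its mean over the 8 libraries in CPM on a log scale, in blue and red for genes lower and higher at an adjusted p under 0.05, with 16 genes named in the text circled. On the right of the plot, above 63.3 CPM, 64 called genes lie below -1 and 6 lie above 1.

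The largest falls in well measured protein-coding genes (mean of at least 1 CPM, groups not overlapping) ran from -3.58 for BHLHA15, followed by XBP1 and FUCA2, to -1.89 for ZNF670, the last of 15, on the log2 scale. Those with a known part in the secretory apparatus are described first, whatever their rank. BHLHA15, which encodes MIST1, a factor that builds up the secretory apparatus of exocrine and plasma cells, was at 28.4, 36.01, 29.9 and 28.6 CPM in siCtrl and 2.10, 2.39, 2.85 and 2.88 CPM in siXBP1. Every siXBP1 library lay far below every siCtrl library, and the fall was larger than that of XBP1 itself (log2 fold change -3.58 ± 0.10 (SE), adjusted p = 3.74e-17). FICD, an ER enzyme that switches the chaperone BiP off and on by AMPylation, stood at 136, 139, 147 and 138 CPM and fell to 22.7, 23.6, 25.7 and 25.4 CPM. DNAJB9, a BiP co-chaperone, stood at 227, 229, 209 and 239 CPM in siCtrl against 42.5, 45.3, 47.97 and 46.5 CPM in siXBP1. For both genes the groups were far apart, with log2 fold changes of -2.52 and -2.31 and standard errors of 0.050 and 0.050. SEC24D, a cargo-binding subunit of the COPII coat, was at 192, 186, 192 and 192 CPM in siCtrl and at 54.02, 48.8, 53.4 and 49.1 CPM in siXBP1, a 3.71-fold fall with no overlap, the smallest of the 15 but for ZNF670.

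The other genes among the 15 largest falls have a range of known roles. PPT1, a lysosomal enzyme that strips palmitate from proteins, was at 90.4, 88.3, 92.7 and 90.8 CPM in siCtrl and 19.2, 20.03, 18.7 and 19.1 CPM in siXBP1 (log2 fold change -2.23 ± 0.047 (SE), adjusted p = 4.11e-19). ATP1B3, a β subunit of the sodium-potassium pump, was at 144, 145, 124 and 135 CPM and 20.5, 24.8, 24.1 and 28.3 CPM. EI24, an ER membrane protein tied to autophagy, was at 172, 167, 191 and 178 CPM and 38.79, 37.4, 40.2 and 36.7 CPM. In each of the 3 genes the siXBP1 libraries formed a tight low group, with falls of 4.70-, 5.602- and 4.63-fold. AK4, a mitochondrial adenylate kinase, was at 137, 149.9, 144 and 148 CPM in siCtrl and 36.6, 37.8, 37.4 and 39.8 CPM in siXBP1, and SLC25A15, the mitochondrial ornithine carrier, was at 18.7, 18.7, 19.96 and 18.2 CPM and 5.36, 4.65, 4.95 and 3.82 CPM. FUCA2, a fucosidase, POMK, the kinase of O-mannosyl glycans, ENTPD7, a nucleotidase of internal membranes, and the zinc finger genes ZNF648 and ZNF670 completed the group, with log2 fold changes of -2.75, -2.07, -1.94, -2.23 and -1.89. Of the 15 genes, 5 share exon sequence with another tested gene (FICD, FUCA2, DNAJB9, ENTPD7 and ZNF670), and fragments that overlapped both were not counted; the same holds for 6497 (30.9%) of the genes tested.

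The 15 largest rises, chosen in the same way, had means over the 8 libraries of 1.05 to 32.2 CPM, against 2.10 to 217 CPM for the 15 falls. MEX3B, an RNA-binding ubiquitin ligase, was at 2.71, 3.01, 2.98 and 2.34 CPM in siCtrl and at 20.8, 18.02, 17.5 and 18.6 CPM in siXBP1, the largest rise of a protein-coding gene of at least 1 CPM (log2 fold change 2.76 ± 0.095 (SE), adjusted p = 7.90e-16). ZPLD1, a zona pellucida-domain protein, went from 8.91, 8.52, 8.95 and 9.15 CPM to 31.9, 32.3, 30.5 and 34.96 CPM. DESI2, a cysteine protease of the desumoylase family, went from 15.8, 16.8, 14.5 and 15.3 CPM to 46.1, 46.9, 53.2 and 49.3 CPM. None of these groups overlapped, and the knockdown libraries were 6.79-, 3.65- and 3.13-fold higher. CCDC71L was at 13.5, 13.2, 12.2 and 12.9 CPM and 41.9, 40.8, 39.9 and 40.5 CPM, and PGM2L1, an enzyme that makes glucose 1,6-bisphosphate, was at 6.39, 4.34, 3.97 and 4.76 CPM and 15.6, 15.6, 16.3 and 15.3 CPM. The transporters ABCB11, the bile salt export pump, and ABCB5 rose with log2 fold changes of 2.66 ± 0.24 and 1.81 ± 0.11 (SE). FCRLA (2.72), RIMS2 (2.05), CFAP107 (2.01), COL16A1 (1.74), PNLIPRP3 (1.72), DLX5 (1.68), FGFR2 (1.65) and LURAP1L (1.65) made up the rest, and 5 of the 15 were under 1 CPM in siCtrl and met the minimum mean through their siXBP1 level.

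**Figure D2:**
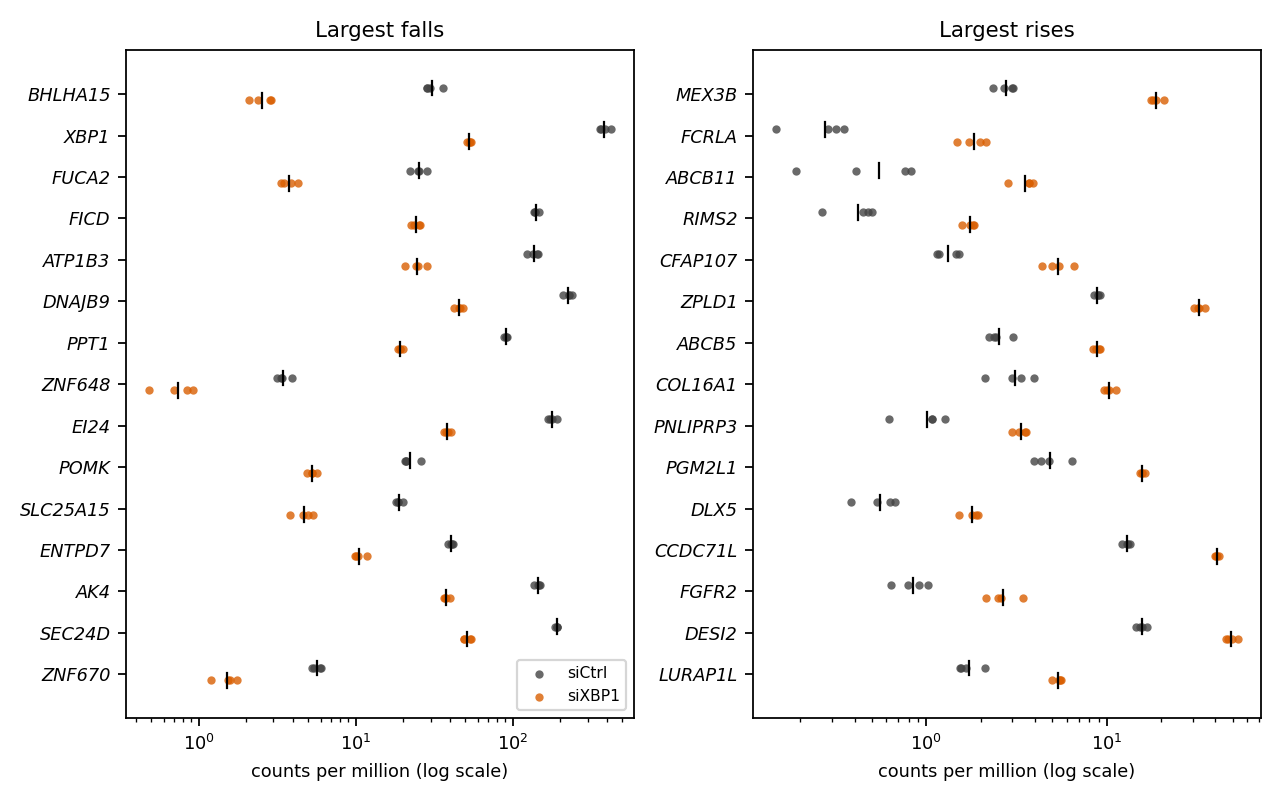
CPM (log scale) of the 15 largest falls, left, and the 15 largest rises, right, among protein-coding genes with a mean of at least 1 CPM whose groups did not overlap; each point is 1 library (grey siCtrl, orange siXBP1, 4 each) and each bar the group mean. The orange points lie below all grey points in each fall and above them in each rise, as the choice of genes required.

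By the share of the mRNA pool, compared between genes per length as TPM, the called changes past 1.5-fold that involved the most transcript were a mixed group. SEC61A1, the pore of the ER translocon, was at 552 ± 23.4 TPM in siCtrl and 328 ± 13.1 TPM in siXBP1 (SD, n = 4 each), and ARF4, a small GTPase of Golgi traffic, at 539 ± 42.8 TPM in siCtrl and 357 ± 10.4 TPM in siXBP1. RPL36AL, a ribosomal protein copy, was at 712 ± 51.2 TPM in siCtrl and 464 ± 10.3 TPM in siXBP1. The remaining falls were 2 processed pseudogenes, RPS7P1 (-0.84 on the log2 scale) and MORF4L1P1 (-0.84), whose counts are uncertain because their reads are near-identical to those of the parent genes. Among the rises GNG5, a G protein γ subunit, went from 364 ± 22.9 to 916 ± 33.4 TPM. FOXA1, a pioneer factor that opens chromatin in prostate cells, was at 356, 373, 358 and 336 CPM in siCtrl and at 717, 623, 663 and 653 CPM in siXBP1 (log2 fold change 0.90 ± 0.045 (SE), adjusted p = 4.13e-13). All 4 siXBP1 libraries held more FOXA1 mRNA than any siCtrl library. ATP2B1, a plasma membrane calcium pump, BTG2, an antiproliferative gene, and UBE2S, an E2 enzyme of the anaphase-promoting complex, rose with log2 fold changes of 0.61, 0.61 and 0.73.

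Most genes of the secretory pathway fell. Over 6 lists that follow a protein from the ribosome to the Golgi, 151 of 237 tested members were lower (63.7%, against 18.2% of all genes tested) and 20 were higher (8.44%, against 16.5%). The shares of all genes tested, set beside the lists here and below, include weakly expressed and noncoding genes, which were called less often. Protein-coding genes were lower in 23.4% and higher in 21.2%, and genes of the highest expression bin in 32.8% and 23.0%. For import into the ER, 21 of 32 genes of targeting and translocation were lower and 1 higher, with a median log2 fold change of -0.44 (0.0050 over all genes tested). The higher one, SEC61A2 (0.20), overlapped between groups, and its call was lost in 3 of the fits with 1 library left out. SERP1, which shields newly made membrane proteins, and the translocon-associated subunits SSR2 and SSR3 fell with log2 fold changes of -1.50, -1.26 and -1.27. TRAM1, a helper of the translocating chain, was at 225, 214, 221 and 234 CPM in siCtrl and 102, 104, 109 and 105 CPM in siXBP1, so that every knockdown library held less than any control library. The list median lay between -0.48 and -0.39 in the 4 siXBP1 libraries (log2 difference from the siCtrl mean) and between -0.04 and 0.03 in the siCtrl libraries.

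N-glycan assembly and transfer, the steps that build a sugar tree and hand it to the new protein, showed 32 of 45 genes lower and 6 higher, with a median of -0.30. These were 71.1% and 13.3% of the list, against 18.2% and 16.5% of all genes tested. GMPPA, a regulator of GDP-mannose supply, went from 60.2 ± 5.82 to 25.5 ± 1.11 CPM (SD, n = 4 each). PGM3 (-1.05) and UAP1 (-0.95), successive enzymes of UDP-GlcNAc synthesis, and STT3A (-0.75), the oligosaccharyltransferase subunit that works beside the translocon, also fell. Its paralogue STT3B was slightly higher (log2 fold change 0.14 ± 0.042 (SE), adjusted p = 0.011), as were ALG10B (0.31), GNPNAT1 (0.22) and MPDU1 (0.14), the last of which lost its call without siXBP1 replicate 3. None of the rises reached 1.5-fold, while 9 of the falls did.

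ER chaperones and folding enzymes did not move together. Of 44 members 22 were lower and 6 higher (50% and 13.6%, against 18.2% and 16.5% of all genes tested), with a median of -0.16. FKBP11 (-1.87) and FKBP14 (-1.25), prolyl isomerases of the ER, fell with FICD and DNAJB9. HSPA5, which encodes BiP, the main ER chaperone, was at 3914, 3522, 3946 and 3883 CPM in siCtrl and 4575, 4560.4, 5095 and 4545 CPM in siXBP1 (log2 fold change 0.30 ± 0.045 (SE), adjusted p = 1.69e-05). HSP90B1, the ER form of HSP90, was at 3462, 3041, 3205 and 3258 CPM in siCtrl and 3827, 3935, 4108 and 3783 CPM in siXBP1 (log2 fold change 0.27 ± 0.043 (SE), adjusted p = 2.45e-05). Both abundant chaperones were higher in all 4 knockdown libraries than in any control library, by 1.23- and 1.21-fold. FKBP9 (0.56) and QSOX1 (0.23), a thiol oxidase, were also higher. The summed level of the list, which a few abundant members dominate, was 16147 ± 622 TPM in siCtrl and 16496 ± 564 TPM in siXBP1, and siXBP1 replicate 3 lay above the other 3 knockdown libraries.

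ER-associated degradation, which pulls misfolded proteins back to the proteasome, had 22 of 34 genes lower and 5 higher, with a median of -0.19. The shares were 64.7% and 14.7%, against 18.2% and 16.5% of all genes tested. SYVN1, the central ubiquitin ligase of the pathway, was at 322, 324, 336 and 295 CPM in siCtrl and 117, 121, 105 and 124 CPM in siXBP1, with no overlap (log2 fold change -1.45 ± 0.051 (SE), adjusted p = 1.01e-15). UBAC2, EDEM1 and ERLIN2 fell with log2 fold changes of -0.83, -0.70 and -0.56. The opposite direction was taken by UBE2G2, the ubiquitin-conjugating enzyme that works with ER ligases, at 67.1, 65.4, 63.96 and 57.6 CPM in siCtrl and 131, 139, 120.2 and 133 CPM in siXBP1 (log2 fold change 1.04 ± 0.052 (SE), adjusted p = 4.42e-13). The higher members UBXN8 (0.27), UBE2J2 (0.22) and FAF2 (0.10) changed far less, and the call of FAF2 was lost in 6 of the alternative fits, the replicate block among them.

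Genes of transport out of the ER and through the Golgi were mostly lower. For ER exit and COPII vesicles 28 of 40 genes were lower (70%, against 18.2% of all genes tested), with a median of -0.45. Only 1, SEC31B (0.59), was higher (2.5%, against 16.5%). The list median lay between -0.47 and -0.41 in the siXBP1 libraries and between -0.02 and 0.03 in the siCtrl libraries. LMAN1, a cargo lectin, SEC23B, a COPII coat subunit, and TMED10, a cargo receptor, fell with log2 fold changes of -0.98, -0.74 and -0.81, beside SEC24D. For COPI vesicles and Golgi structure 26 of 42 were lower (61.9%) and 1, ARF5 (0.29), was higher (2.38%), with a median of -0.39. COPA, the α subunit of the COPI coat, was at 301, 308, 299.96 and 300.1 CPM in siCtrl and at 137, 134, 136 and 133 CPM in siXBP1 (log2 fold change -1.16 ± 0.037 (SE), adjusted p = 2.30e-16). The groups were each tight and wholly apart, as they were for GOLPH3L (-1.20), GORASP2 (-0.997), a Golgi stacking protein, and KDELR2 (-1.04), which returns escaped ER proteins. Summed over the members, the COPII list stood at 4698 ± 171 TPM in siCtrl and 3392 ± 66.97 TPM in siXBP1, and the COPI and Golgi list at 5282 ± 202 TPM in siCtrl and 3965 ± 63.3 TPM in siXBP1.

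**Figure D3:**
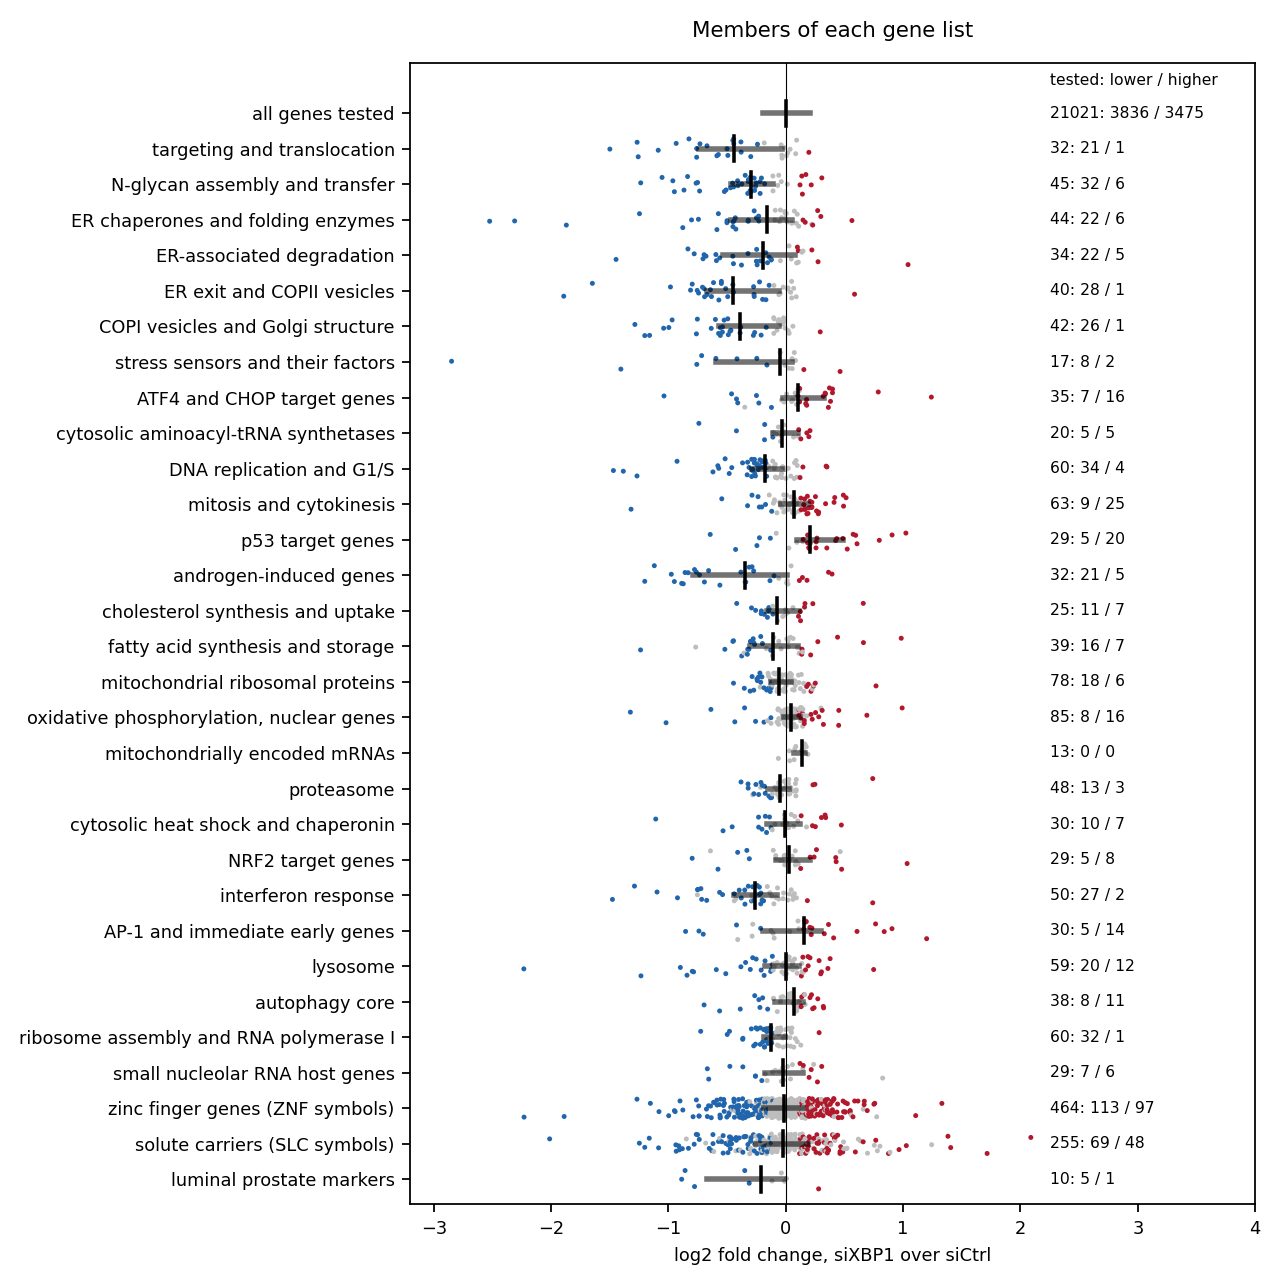
Log2 fold change (siXBP1 over siCtrl) of every tested member of 30 gene lists, blue for lower, red for higher and grey for genes that did not pass the test; the black bar is the list median, the dark band its interquartile range, and the numbers at the right give members tested, lower and higher. For all genes tested only the median and interquartile range are drawn; the COPII list has 28 of 40 members lower, and the p53 list 20 of 29 higher.

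Among the stress sensors and their factors, 8 of 17 were lower, XBP1 included, and 2 higher, with a median of -0.05. These shares were 47.1% and 11.8%, against 18.2% and 16.5% of all genes tested. CREB3L2, a membrane-bound relative of ATF6, was at 147, 162, 160.5 and 157 CPM in siCtrl and 61.6, 57.3, 56.1 and 60.9 CPM in siXBP1 (log2 fold change -1.41 ± 0.046 (SE), adjusted p = 3.45e-16). EIF2AK3, which encodes PERK, was at 84.6, 77.7, 83.4 and 80.5 CPM and 48.3, 45.9, 52.7 and 46.1 CPM, and EIF2AK2, the kinase PKR, fell by 0.72 on the log2 scale. In contrast DDIT3, which encodes CHOP, was higher at 239, 249, 258 and 238 CPM than the 184, 169, 182 and 179 CPM of siCtrl (log2 fold change 0.46 ± 0.041 (SE), adjusted p = 6.79e-09). Of the targets of ATF4 and CHOP, the factors downstream of PERK, 16 of 35 were higher (45.7%, against 16.5% of all genes tested) and 7 lower (20.0%, close to the 18.2% of all genes tested), with a median of 0.10. FGF21 (1.24), a stress hormone, CEBPB (0.79), XPOT (0.40), a tRNA exporter, and SLC1A5 (0.40), a glutamine carrier, rose. MTHFD2, a mitochondrial folate enzyme, went the other way, from 253, 260.1, 268 and 269 CPM to 124, 125, 127 and 135 CPM (log2 fold change -1.04 ± 0.040 (SE), adjusted p = 5.66e-15), as did SLC7A1 (-0.46), ATF3 (-0.42) and PSAT1 (-0.41). The cytosolic aminoacyl-tRNA synthetases were balanced, with 5 of 20 lower and 5 higher (25% each) and FARSA (-0.74) the furthest from 0.

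Among cell cycle genes, those of replication were mostly lower and those of mitosis more often higher than lower. Of the genes for DNA replication and entry into S phase, 34 of 60 were lower and 4 higher (56.7% and 6.67%, against 18.2% and 16.5% of all genes tested), with a median of -0.18. CDC6, which loads the replicative helicase, was at 230.5, 231, 238 and 235 CPM in siCtrl and 85.3, 81.5, 83.9 and 86.6 CPM in siXBP1. RRM2, the subunit of ribonucleotide reductase that limits nucleotide supply, was at 258, 286, 277 and 285 CPM and 98.04, 109, 102 and 115 CPM. FEN1, a nuclease of lagging-strand synthesis, fell by 1.27 and GINS1, of the helicase complex, by 0.93 on the log2 scale. All 4 were lower in every knockdown library, with falls of 2.77-, 2.61-, 2.41- and 1.90-fold, while CCNE1 (0.35) and GINS3 (0.34) were higher. The genes of mitosis and cytokinesis showed 25 of 63 higher (39.7%) and 9 lower (14.3%, under the share of all genes tested), with a median of 0.07. CCNB1, the cyclin of mitotic entry, was at 92.4, 88.1, 94.6 and 91.9 CPM in siCtrl and 124, 128, 134 and 129 CPM in siXBP1 (log2 fold change 0.49 ± 0.041 (SE), adjusted p = 2.66e-09), and TOP2A (0.41), SMC4 (0.42) and CENPA (0.49) were likewise higher. No mitotic rise reached 1.5-fold, and the largest mitotic change was a fall, that of ANLN, the cytokinesis scaffold anillin, from 129.8, 123, 125 and 125 CPM to 49.7, 48.9, 52.8 and 50.3 CPM (log2 fold change -1.32 ± 0.043 (SE), adjusted p = 3.31e-16).

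Targets of p53, the tumour suppressor that answers DNA damage and other stress, showed 20 of 29 members higher (69.0%, against 16.5% of all genes tested) and 5 lower (17.2%), with a median of 0.21. SESN1, a sestrin that restrains mTORC1, was at 41.1, 39.3, 40.1 and 36.2 CPM in siCtrl and 78.4, 76.7, 82.8 and 80.6 CPM in siXBP1 (log2 fold change 1.02 ± 0.049 (SE), adjusted p = 1.83e-13). DDB2, a damage sensor, BTG2 and BAX, a pore-forming cell death gene, were higher by 0.80, 0.61 and 0.52. CDKN1A, the cell cycle inhibitor p21 and the best known target, named here after its value was seen, was higher by 0.19 (322, 341, 346 and 344 CPM in siCtrl, 392, 382, 375 and 390.4 CPM in siXBP1). AEN, a nuclease, was the member that fell furthest (-0.64), followed by FBXW7 (-0.43). The list median was between 0.21 and 0.27 in the 4 siXBP1 libraries and between -0.02 and 0.02 in the siCtrl libraries.

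Androgen-induced genes, which mark the luminal state of prostate cells, were mostly lower: 21 of 32 were lower (65.6%, against 18.2% of all genes tested) and 5 higher (15.6%, close to the 16.5% of all genes tested), with a median of -0.34. SLC45A3, a prostate membrane transporter, was at 223, 257, 257 and 252 CPM in siCtrl and 103, 111, 107 and 109 CPM in siXBP1 (log2 fold change -1.20 ± 0.047 (SE), adjusted p = 5.37e-15). TMPRSS2, a protease, was at 225, 235, 231 and 228 CPM and 118, 126, 126 and 126 CPM, and KLK3, which encodes prostate-specific antigen, at 639.7, 639.5, 654 and 681 CPM and 340.05, 368, 368 and 366 CPM. These 3 genes were lower in each knockdown library by a wide gap. The higher members PMEPA1 (0.36), ADAM7 (0.39), KCNN2 (0.18) and ELL2 (0.12) changed less. Summed over the list, the level was 4635 ± 255 TPM in siCtrl and 3455 ± 84.5 TPM in siXBP1. Of the 10 luminal markers 5 were lower, among them KLK2 (-0.78), the keratin KRT18 (-0.35), TMPRSS2 and KLK3, and 1 was higher, EPCAM (0.28), whereas HOXB13 (0.01) and FOLH1 (-0.01) did not pass the test and changed sign with 1 library left out.

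**Figure D4:**
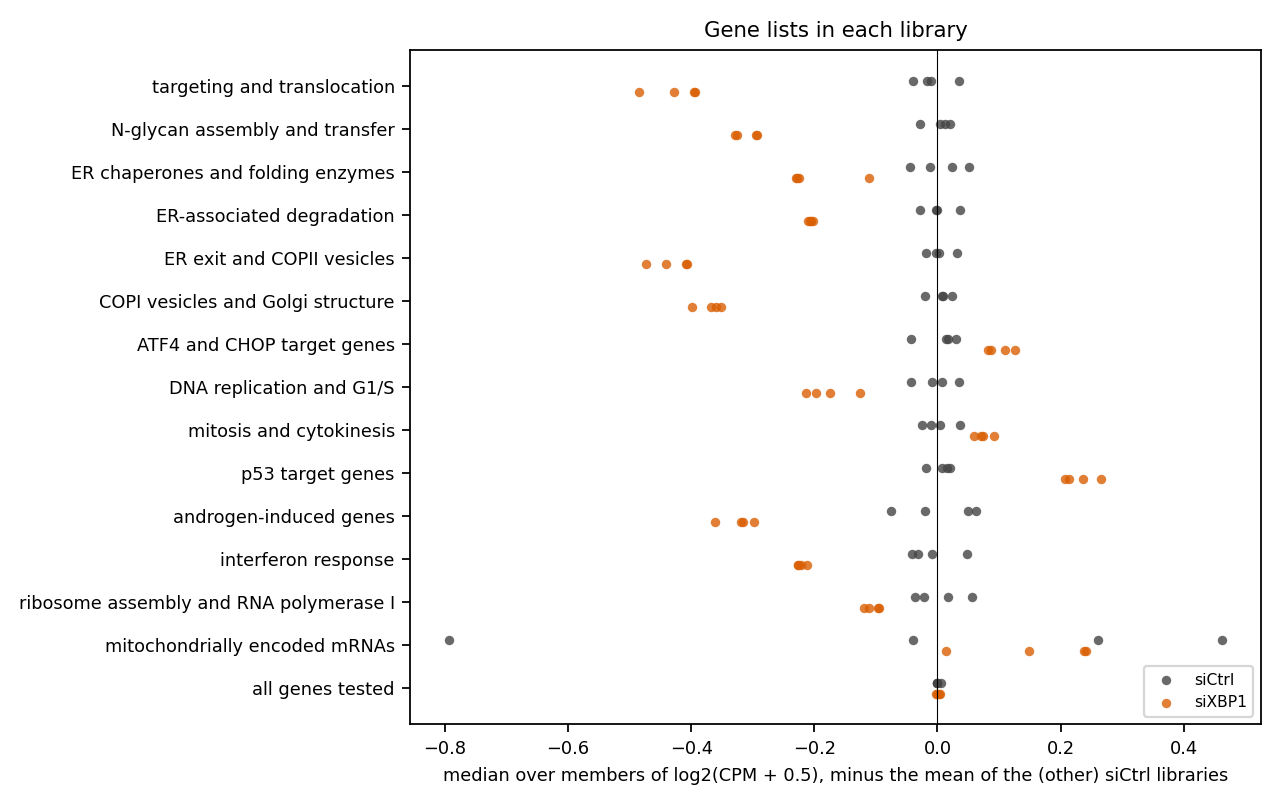
Median over the members of each gene list of log2(CPM + 0.5) in 1 library minus the mean of the siCtrl libraries (the other 3 for a siCtrl library), for 14 lists and all genes tested; each point is a library, grey for siCtrl and orange for siXBP1. The p53 list lies between 0.21 and 0.27 in siXBP1 and the androgen list between -0.36 and -0.30, outside the range of the siCtrl libraries, and the mitochondrial mRNAs spread most among the siCtrl libraries.

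Genes of lipid metabolism changed modestly and in both directions, where 18.2% of all genes tested were lower and 16.5% higher. For cholesterol synthesis and uptake 11 of 25 were lower and 7 higher (44% and 28%, median -0.07), and 1 member rose and 0 fell more than 1.5-fold, with EBP (-0.42), a sterol isomerase, among the falls. For fatty acid synthesis and storage 16 of 39 were lower and 7 higher (41.0% and 17.9%, median -0.11), the higher share being close to that of all genes tested. GPAT4, an ER enzyme of the first step of triglyceride synthesis, went from 94.1 ± 2.76 to 39.9 ± 1.59 CPM, and FASN, fatty acid synthase, from 2335 ± 182 to 1708 ± 60.1 CPM (SD, n = 4), in both with no overlap. LPIN2 (-0.45) and ELOVL1 (-0.38) were lower, and ELOVL4 (0.98), MLXIPL (0.66) and AGPAT2 (0.44) higher.

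The lists of nuclear genes for mitochondrial proteins had medians near 0, with a few members far out. Of 78 mitochondrial ribosomal proteins 18 were lower (23.1%, against 18.2% of all genes tested) and 6 higher (7.69%, against 16.5%). The list median was -0.05, and MRPL50 (0.77) was the member furthest from 0. Among 85 nuclear genes of oxidative phosphorylation and its assembly 8 were lower (9.41%) and 16 higher (18.8%), with a median of 0.04. The first share was under the 18.2% of all genes tested, and the second was close to the 16.5%. In the highest expression bin 32.8% of genes were lower and 23.0% higher. SDHD, the membrane anchor of complex II, was at 22.4, 19.2, 23.5 and 20.5 CPM and 10.7, 9.58, 11.4 and 10.6 CPM, 2.03-fold lower. Its groups were wholly separate, while ATP5PB (-0.64) fell and NDUFAF4 (0.69), NDUFAF8 (0.99) and NDUFA5 (0.45) rose. None of the 13 mitochondrially encoded mRNAs passed edgeR's test or DESeq2's, and 1 had an unadjusted p under 0.05 in edgeR; without siCtrl replicate 1, 5 were called higher, and 7 without a filter on low counts. They were 1.69% to 3.22% of the counted fragments in the siCtrl libraries, with siCtrl replicate 4 the lowest of all 8 and replicate 1 the highest, and 2.55% to 3.07% in the siXBP1 libraries. Without siCtrl replicate 4, 3417 of all genes tested were lower and 3313 higher.

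Protein turnover and stress genes outside the ER had list medians near 0. Beside their shares stand 18.2% lower and 16.5% higher of all genes tested, and 32.8% and 23.0% of the highest expression bin. The proteasome had 13 of 48 members lower and 3 higher (27.1% and 6.25%, median -0.05), with PSMB2 (-0.32) and PSMD11 (-0.27) among the falls. Cytosolic heat shock and chaperonin genes had 10 of 30 lower and 7 higher (33.3% and 23.3%, median -0.01). DNAJA2, a cytosolic HSP70 partner, was an exception, at 144, 134, 134 and 147 CPM in siCtrl and 61.5, 63.2, 68.3 and 66.4 CPM in siXBP1, lower in every knockdown library and 2.16-fold lower in the mean. HSP90AB1, an abundant cytosolic HSP90, fell by 0.46 on the log2 scale, while DNAJB1 (0.47) and DNAJB6 (0.34) rose. The targets of NRF2, the factor of the antioxidant response, had 5 of 29 lower and 8 higher (17.2% and 27.6%, median 0.03), and 1 fell and 1 rose more than 1.5-fold. The lower share was close to that of all genes tested. OSGIN1 (-0.58), PRDX1 (-0.33), a peroxiredoxin, and TXNRD1 (-0.31), thioredoxin reductase, were lower, and FTH1 (0.43), the ferritin heavy chain, and SRXN1 (1.03) higher. SRXN1 had 1 siCtrl library apart from the others (6.90, 15.1, 6.44 and 6.49 CPM in siCtrl, 13.3, 14.6, 22.9 and 20.97 CPM in siXBP1), and its groups overlapped.

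The interferon response, genes that cells use against viruses, was lower in 27 of 50 members (54.0%, against 18.2% of all genes tested) and higher in 2 (4.00%, against 16.5%), with a median of -0.26. OAS3, which senses double-stranded RNA, was at 58.4, 71.3, 62.5 and 63.9 CPM in siCtrl and 26.2, 24.8, 27.2 and 26.6 CPM in siXBP1 (log2 fold change -1.29 ± 0.058 (SE), adjusted p = 7.38e-14). IFIT2 was at 15.8, 15.8, 15.8 and 16.2 CPM and 7.599, 7.83, 9.97 and 8.10 CPM, and RIGI, an RNA sensor, fell by 0.75 on the log2 scale together with EIF2AK2. In all 4 genes the siXBP1 libraries were below every siCtrl library. The 2 higher members were PSMB8 (0.768 ± 0.223 to 1.29 ± 0.326 CPM, SD, n = 4), low and overlapping between groups, and TRIM21 (0.18), and each call was lost in 3 of the alternative fits. The AP-1 and immediate early genes, which respond within minutes to growth and stress signals, had 14 of 30 higher (46.7%) and 5 lower (16.7%, close to the share of all genes tested), with a median of 0.16. IER5 (0.84), EGR3 (0.90) and KLF6 (0.41) rose with BTG2, and NR4A2 (-0.85), DUSP5 (-0.74), NR4A3 (-0.70) and ATF3 fell.

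Lysosomal genes had a median of 0.01, with 20 of 59 lower and 12 higher (33.9% and 20.3%), and 7 members fell and 1 rose more than 1.5-fold. Of all genes tested 18.2% were lower and 16.5% higher. The lysosomal shares were close to the 32.8% and 23.0% of the highest expression bin. After PPT1, SCARB2, which carries glucocerebrosidase to the lysosome, was at 449.5, 459.6, 478 and 466 CPM in siCtrl and 189.8, 192, 208 and 198 CPM in siXBP1 (log2 fold change -1.23 ± 0.040 (SE), adjusted p = 3.38e-16), and NPC1, the cholesterol exporter of the lysosome, was at 285, 289, 287 and 282 CPM and 156, 150.00, 151 and 156 CPM. The membrane proteins LAMP1 (0.38) and LAMP2 (0.30) and the proton pump subunit ATP6V1A (0.36) were higher, whereas ATP6V1D (-0.84), of the same pump, was lower. The autophagy core had 8 of 38 lower and 11 higher (21.1% and 28.9%, median 0.07), the lower share being close to that of all genes tested. Its called members were led by WIPI1 (-0.70), ATG12 (-0.56) and ATG13 (-0.39) downward and ATG2B (0.32) and ULK2 (0.32) upward.

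Ribosome assembly and RNA polymerase I had 32 of 60 genes lower (53.3%, against 18.2% of all genes tested) and 1, POLR1D (0.28), higher. The falls were small, with a median of -0.12 and only 1 past 1.5-fold, that of POLR1B, a catalytic subunit of RNA polymerase I, from 51.6, 52.8, 51.6 and 49.1 CPM to 30.2, 28.8, 33.2 and 31.9 CPM (log2 fold change -0.73 ± 0.052 (SE), adjusted p = 1.95e-10). The small nucleolar RNA host genes were balanced, with 7 of 29 lower (24.1%), DANCR (-0.67) among them, and 6 higher (20.7%). The largest families had medians near 0. Of 464 zinc finger genes 113 were lower and 97 higher (24.4% and 20.9%, median -0.01). Of 255 solute carriers 69 were lower and 48 higher (27.1% and 18.8%, median -0.03). Among all protein-coding genes tested 23.4% were lower and 21.2% higher. Single members lay far out. The zinc finger genes ran from ZNF648 (-2.23) to ZNF281 (1.33), and ZNF367 (1.11) rose too. The solute carriers ran from SLC25A15 (-2.01) to SLC5A12 (2.09), a monocarboxylate carrier named after its value was seen, which had a mean of only 0.288 CPM. Less far out, SLC33A1 (-1.25), the acetyl-CoA carrier of the ER, and the zinc carrier SLC30A6 (-0.94) fell.

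The inhibitor experiment offers a second way to remove XBP1s, by blocking the RNase of IRE1α, and the difference between the responses was tested for each gene by an interaction term, with the 16 libraries fitted together. Of 20357 genes tested, 4735 (23.3%) differed at an adjusted p under 0.05, 2578 with the knockdown value below the inhibitor value and 2157 above. The experiments differ also in the way of delivery and in the duration, which cannot be told apart from the agent. Within the secretory lists the share that differed ran from 10 of 34 for ER-associated degradation and 10 of 32 for targeting and translocation to 22 of 40 for COPII, and the median MKC8866 log2 fold changes were negative too, -0.10, -0.33 and -0.21. The androgen-induced genes differed in 22 of 32 genes, 21 of them with the knockdown value below, and had an MKC8866 median of 0.08 beside -0.34 for the knockdown. The replication genes differed in 31 of 60 and had an MKC8866 median of 0.01, the p53 targets in 18 of 29 with a median of 0.02, and the interferon genes in 21 of 50 with a median of 0.01. For AP-1 and immediate early genes 8 of 30 differed, and the medians were 0.16 and 0.19.

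The genes with the largest knockdown falls, which were chosen on their knockdown values, had MKC8866 values of both kinds. BHLHA15 (-2.33), FICD (-2.06), DNAJB9 (-1.87), SEC24D (-1.05), ZNF648 (-1.08) and ENTPD7 (-0.68) were lower after MKC8866 at an adjusted p under 0.05 in that fit. The other 9, PPT1 (0.11), ATP1B3 (-0.04), EI24 (-0.07), AK4 (0.03), FUCA2 (0.06), POMK (0.12), SLC25A15 (-0.04), ZNF670 (0.09) and XBP1 (0.20), had MKC8866 log2 fold changes within 0.25 of 0, and XBP1 was the only one of them that passed the test, upward. Of the 15 largest rises, 2 passed the test after MKC8866, both upward, MEX3B (0.28) and CCDC71L (0.31).

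**Figure D5:**
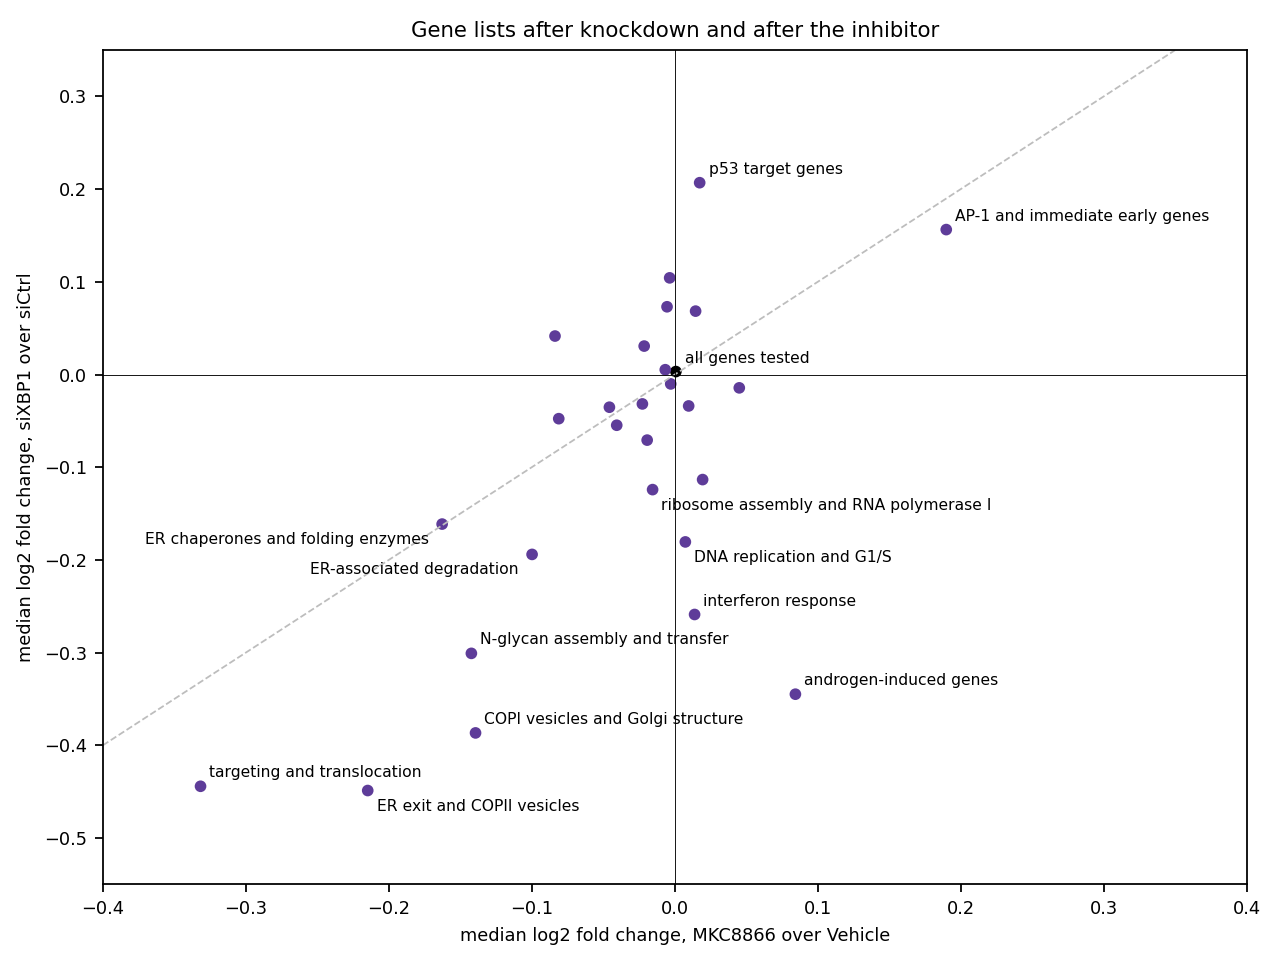
Median log2 fold change of each gene list with at least 20 tested members after MKC8866 (over Vehicle, horizontal) and after XBP1 knockdown (over siCtrl, vertical), in genes tested in both; the dashed line marks equal medians and the black point all genes tested. The secretory lists lie at the lower left, and the androgen, interferon and replication lists lie below the line, at -0.34, -0.26 and -0.18 on the vertical axis and 0.08, 0.01 and 0.01 on the horizontal.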

How the data were processed

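RNA-seq was measured in LNCaP cells, and 8 of the 16 libraries entered the comparison, with the other 8 used for the inhibitor comparison. Groups and replicate numbers came from the sample labels. Per the study's methods and the labels, the authors sequenced a stranded paired-end library, aligned reads to hg38 with STAR 2.5.2a and counted fragments per gene with featureCounts 1.5.0 (strand not used, reads on more than 1 locus or gene not counted), and the deposited table holds raw counts for 58051 genes. No normalized column was used. Strand not being used, reads of a gene and of an antisense partner cannot be told apart. The members and gene lists were chosen with earlier results of these data known, so no list is independent evidence of its direction.

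A gene was kept where both groups had 1 library or more above 5 counts (21021 genes), and the kept genes were fitted with edgeR 4.0.16 (R 4.3.3; limma 3.58.1) with TMM scaling and the quasi-likelihood test, with Benjamini-Hochberg adjustment. The difference from the MKC8866 response was an interaction term, fitted over the 16 libraries together. Fold changes, CPM and TPM (counts per exon length of the reference annotation) were computed here. SEs are per gene from the fit. Counts of 28713607 to 34509488 fragments per library set the precision. DESeq2 1.42.0, other scalings, filters, the replicate number as a block and each library left out were alternatives. Named genes were XBP1, the 15 largest falls and rises (protein-coding, mean of at least 1 CPM, groups not overlapping), the 5 most abundant called falls and rises past 1.5-fold, up to 4 called members per list and direction by adjusted p, and the cell type markers; a gene outside the rule is named as chosen after its value was seen. Promoter windows were searched in 12646 tested genes, with python packages numpy 2.4.6 and pandas 2.3.3. Results for a few genes are not reported here.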

Additional observations from a re-analysis of the deposited data

Results flagged for a closer look

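In 23 of 428 groups of 4 libraries, 1 library stood apart from the other 3 (the gap to its nearest neighbour was above Dixon's critical value for groups of 4), and chance alone gives about 1 in 20. SRXN1 was at 15.1 CPM in siCtrl replicate 2 against 6.44 to 6.90 CPM in the other control libraries, and its log2 fold change was 1.45 without that library, against 1.03 with it. The library was the highest of its group for ATP5PB (siCtrl replicate 4, 170.2 against 149 to 152 CPM), COPA (siCtrl replicate 2, 308 against 299.96 to 301 CPM), EBP (siXBP1 replicate 3, 45.9 against 42.9 to 43.4 CPM), EDEM1 (siXBP1 replicate 4, 78.7 against 74.2 to 74.9 CPM), EPCAM (siCtrl replicate 1, 49.5 against 42.2 to 42.9 CPM), EPCAM (siXBP1 replicate 3, 65.4 against 48.9 to 51.1 CPM), HSPA5 (siXBP1 replicate 3, 5095 against 4545 to 4575 CPM), IFIT2 (siCtrl replicate 4, 16.2 against 15.75 to 15.81 CPM), LAMP1 (siXBP1 replicate 3, 181 against 163 to 165 CPM), POMK (siCtrl replicate 4, 26.0 against 20.8 to 21.1 CPM) and TOP2A (siXBP1 replicate 3, 192 against 183 to 184 CPM). It was the lowest for ALG10B (siCtrl replicate 1, 16.9 against 19.3 to 19.6 CPM), DUSP5 (siXBP1 replicate 3, 6.98 against 8.72 to 8.95 CPM), HSPA5 (siCtrl replicate 2, 3522 against 3883 to 3946 CPM), KLK3 (siXBP1 replicate 1, 340.05 against 366 to 368 CPM), NR4A2 (siCtrl replicate 1, 3.78 against 4.21 to 4.25 CPM), SEC24D (siCtrl replicate 2, 186 against 191.7 to 192.4 CPM), SLC45A3 (siCtrl replicate 1, 223 against 252 to 257 CPM) and TMPRSS2 (siXBP1 replicate 1, 118 against 126.1 to 126.5 CPM). In summed TPM, ER chaperones and folding enzymes stood at 17335 in siXBP1 replicate 3 against 16127 to 16299.7 in the others, nuclear genes of oxidative phosphorylation stood at 12312 in siCtrl replicate 4 against 11097 to 11149 in the others, leukocyte markers stood at 0.106 in siXBP1 replicate 3 against 0.542 to 0.607 in the others. siXBP1 replicate 3 was the library apart in 8 of these groups.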

How the results depend on the processing

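The lower and higher counts stayed within 1.5 times their reported value under DESeq2, another scaling, another count filter, all 16 libraries in one fit and any library left out (3365 to 3622 lower and 3172 to 3475 higher with 1 library left out), and a test against a fold of 1.2 left 1368 lower and 1049 higher. With at least 10 counts in every library, which removes low genes, 372 genes were past 2-fold and 16 past 4-fold, the interferon median was -0.21 and that of the fibroblast and endothelial markers 0.53; without a filter 212 genes were past 4-fold. Scaled by raw totals, 3071 genes were without overlap in the lower direction and 3898 in the higher. The replicate numbers did not pair the libraries (correlations of same-numbered deviations 0.054, 0.0086, 0.042 and 0.064), and a replicate block gave 3846 lower and 3477 higher genes and 5642 genes that differed from the MKC8866 response. With 1 library left out, list medians that moved by more than the spread between libraries ran from -0.45 to -0.40 for targeting and translocation, -0.23 to -0.14 for ER chaperones, -0.46 to -0.41 for COPII, -0.40 to -0.37 for COPI and Golgi, 0.066 to 0.10 for mitosis, 0.20 to 0.23 for p53 targets, -0.12 to -0.088 for fatty acid genes, -0.27 to -0.22 for interferon genes, -0.038 to 0.010 for solute carriers and -0.24 to -0.16 for luminal markers; the cause was not tested. Of 181 genes followed through the alternatives, 171 kept their sign and call in all of them. Some genes named in the text, GNG5, HSP90AB1, RIGI and EIF2AK2 among them, were not followed in this way. CALR, FOLH1 and HOXB13, which did not pass the test, changed sign, at -0.018 to 0.018, -0.025 to 0.0051 and -0.022 to 0.073 with 1 library left out, and CALR and FOLH1 at 0.0021 and 7.00e-05 with at least 10 counts. The calls of FAF2, MPDU1, PDGFRB, PSMB8, SEC61A2 and TRIM21 were lost in 1 to 6 alternatives, MPDU1 and PDGFRB without siXBP1 replicate 3, SEC61A2 without siCtrl replicate 3 or siXBP1 replicate 2 or 4, PSMB8 without siCtrl replicate 3 or 4 or siXBP1 replicate 3, TRIM21 without siCtrl replicate 3 or siXBP1 replicate 1 or 3, and FAF2 in both the block and the unfiltered fit as well. COPB1 passed the test in 2 alternatives. The direction of change in genes under about 1 CPM rests on few fragments, and 1 siRNA product leaves its effects on other mRNAs together with those of XBP1.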
